A study of Mus musculus with 14 samples.

Results

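The forkhead genes encode transcription factors that share a winged helix DNA-binding domain, and their symbols carry the letter of the subclass, from Foxa to Foxs. They were taken here by symbol (Fox, a letter from a to s and a number, so that antisense names such as Foxd2os are left out) from deposited lists of chromatin regions whose accessibility differed between groups of mouse samples by the authors' own test. Of 44 protein-coding forkhead genes in a RefSeq table, 25 (56.8%, against 26.8% of 21900 protein-coding genes) lay near at least 1 listed region, and they account for 60 of the 9954 regions of all lists. Their regions belong to 15 of 19 subclasses.

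Accessibility was measured by ATAC-seq, which marks open DNA by the cuts of the Tn5 transposase, in erythro-myeloid progenitors of the yolk sac at E10.5. These are the embryonic cells that form red cells and myeloid cells, and 500 of them were sorted per sample. Samples fall into 5 Tie2 KO (Ezh2fl/fl with Tie2-CreTg/+), 3 Vav KO (Ezh2fl/fl with Vav-CreTg/+) and 3 Tie2 WT samples (Ezh2fl/fl with Tie2-Cre+/+, labelled wild type), all C57BL/6 and all with floxed Ezh2, the controls included. A further 3 Vav WT samples (Ezh2fl/fl with Vav-Cre+/+) enter no list used here, so Vav KO was compared with a control of the other Cre line, and there the Cre line and the genotype cannot be told apart. Tie2-Cre is active in endothelium and in the blood cells that come from it, and Vav-Cre in blood cells.

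Ezh2 is the enzyme of Polycomb repressive complex PRC2, which places methyl groups on lysine 27 of histone H3. That mark is known to lie over CG-rich gene starts of developmental regulators, forkhead genes among them, in cells that do not use them. Forkhead proteins act in the making of endoderm (Foxa), mesoderm and vessels (Foxc, Foxf), brain and neural crest (Foxb, Foxd) and motile cilia (Foxj1). Others are used by most cells, such as Foxo factors, which insulin signalling holds out of the nucleus, and Foxk factors of sugar metabolism.

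Each line of the lists gives the authors' log2 fold change for a region with its adjusted p, and values per sample are not part of them. The spread between embryos and the depth of each library are therefore unknown, and a single region has the authors' adjusted p as its error. Apart from 2 lines of regions inside a gene, the listed regions cover a gene start or end within 5 kb upstream of it, with an absolute log2 fold change of at least 0.58 and an adjusted p of at most 0.0479 in the authors' deposited table. A gene without a listed region is thus not shown to be unchanged. In bulk samples, a larger share of cells with an open region and a wider opening in each cell cannot be told apart. The labelled cell type could not be checked, since the lists hold no levels. Of 10 of its markers, 0 lay near a region of Tie2 KO against Tie2 WT, a comparison that lists 11.5% (higher) and 2.51% (lower) of protein-coding genes. In Vav KO against Tie2 WT, Csf1r was at 0.92 and Gata2 at -1.55 in the authors' deposited table. These are 10% of the markers in each direction, against 5.29% (higher) and 2.59% (lower) of protein-coding genes. In Tie2 KO against Vav KO, Gata2 was at 0.92, Cd34 at -1.09 and Csf1r at -1.33, in the authors' deposited table. That Gata2 region has the largest adjusted p of its list. These are 10% higher and 20% lower, against 11.1% and 6.35%, and rest on few genes. The part of these marker differences in the results that follow was not tested. No listed region lay near Ezh2, and a region over its gene start would not test the deletion. Over the start of Tek, the gene of the Tie2 driver, a region was higher in Tie2 KO than Tie2 WT (log2 fold change 2.90) and than in Vav KO (2.92) in the authors' deposited table. Over the start of Vav1 a region was higher in Vav KO than in Tie2 WT, at 0.81, and lower in Tie2 KO than in Vav KO, at -0.90, in the authors' deposited table. Of these groups only Tie2 KO carries Tie2-Cre and only Vav KO carries Vav-Cre. Whether reads from the drivers in these transgenes add to the values at Tek and Vav1 was not tested.

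Sequence before the gene start is shown for 5 members with a listed region over all or part of it. They are members that changed in opposite directions in different comparisons or at different positions (Foxa2, Foxd3, Foxe3) and a pair of neighbours that were higher together (Foxc1, Foxf2). Each line gives the 250 bases before the start in RefSeq (GRCm38.p6), read 5′ to 3′ along the gene, with CG dinucleotides in capitals. Foxa2 lies on the minus strand at chr2:148046970-148047219, Foxd3 on the plus strand at chr4:99656049-99656298, Foxe3 on the minus strand at chr4:114926068-114926317, Foxc1 on the plus strand at chr13:31806396-31806645 and Foxf2 on the plus strand at chr13:31625566-31625815. The RefSeq start of Foxe3 lies 54 bp from the start in the lists.
Foxa2: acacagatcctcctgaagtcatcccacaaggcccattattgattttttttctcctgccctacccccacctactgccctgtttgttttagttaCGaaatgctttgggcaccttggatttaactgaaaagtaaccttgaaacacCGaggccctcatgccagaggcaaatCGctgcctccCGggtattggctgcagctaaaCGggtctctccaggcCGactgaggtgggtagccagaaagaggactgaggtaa
Foxd3: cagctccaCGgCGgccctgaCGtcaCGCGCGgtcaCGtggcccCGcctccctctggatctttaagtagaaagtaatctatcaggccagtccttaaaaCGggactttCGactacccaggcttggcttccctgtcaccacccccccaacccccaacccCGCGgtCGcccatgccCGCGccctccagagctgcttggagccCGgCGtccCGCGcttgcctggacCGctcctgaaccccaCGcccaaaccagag
Foxe3: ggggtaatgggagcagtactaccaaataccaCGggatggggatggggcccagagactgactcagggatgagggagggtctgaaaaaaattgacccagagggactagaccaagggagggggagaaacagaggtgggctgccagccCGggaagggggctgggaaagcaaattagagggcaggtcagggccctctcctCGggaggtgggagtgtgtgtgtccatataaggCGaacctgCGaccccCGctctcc
Foxc1: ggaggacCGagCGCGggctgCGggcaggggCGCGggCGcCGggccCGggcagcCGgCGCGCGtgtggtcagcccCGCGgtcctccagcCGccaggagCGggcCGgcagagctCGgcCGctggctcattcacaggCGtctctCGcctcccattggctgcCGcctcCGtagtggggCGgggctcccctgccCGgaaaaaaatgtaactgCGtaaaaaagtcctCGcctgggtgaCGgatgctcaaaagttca
Foxf2: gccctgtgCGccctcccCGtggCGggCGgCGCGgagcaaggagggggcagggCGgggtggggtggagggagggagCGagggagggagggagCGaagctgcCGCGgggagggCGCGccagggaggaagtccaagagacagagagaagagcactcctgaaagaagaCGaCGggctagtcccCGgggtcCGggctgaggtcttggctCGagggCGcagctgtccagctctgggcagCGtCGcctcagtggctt

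Counted over these windows, Foxa2 and Foxe3 held 6 CG dinucleotides each, Foxd3 and Foxf2 held 21 each and Foxc1 held 29. The median over 32851 promoters of the table was 6, and as many CG as in Foxc1 were found in 6.78% of them. These promoters belong to 27025 genes, more than the 21900 protein-coding ones, and some genes have more than 1. Each forkhead gene is counted at 1 promoter. For listed members it is the one nearest the gene start in the lists. Members in no list have no such start, and the first promoter given in RefSeq was taken. The effect of these differences between the sets was not tested. The table holds 14 of the 25 listed members, whose counts ran from 6 to 48 with a median of 21. For 14 of the 19 members in no list the counts ran from 3 to 34 with a median of 11.5. These medians rest on promoters picked in different ways, so they are not a like comparison. Foxk2, with 48 CG, and Foxj2, with 36, had the densest windows, and the listed regions of both ended upstream of them. The motif TGTTTAC, a core of forkhead binding sites, was searched on both strands and occurred in 1 of the 14 listed members (Foxa1), against 3.17% of all promoters. TATAAA, searched likewise, occurred in 0 of the 14, against 12.4% of all promoters. No listed member thus held both motifs, and a match describes the letters only.

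**Figure D1:**
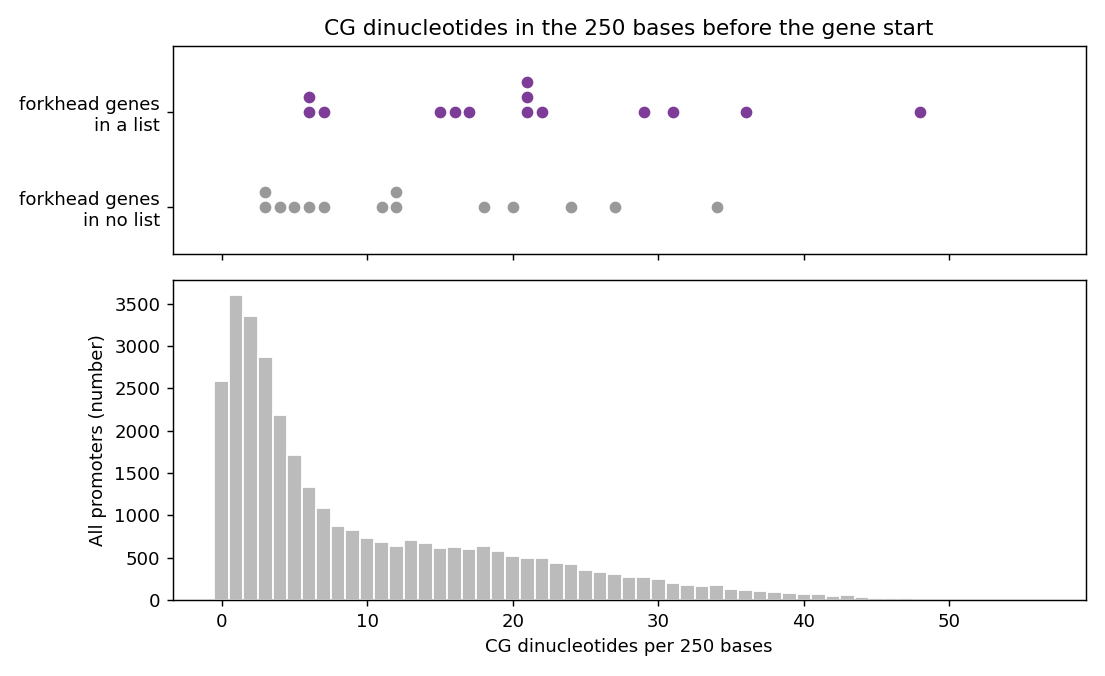
Number of CG dinucleotides in the 250 bases before the gene start (x axis) for forkhead genes with and without a listed region (upper panel, 1 point per gene, stacked where equal) and for all 32851 promoters of the RefSeq table (lower panel, number of promoters). Members in a list run from 6 to 48 with a median of 21, members in no list from 3 to 34, and the median of all promoters is 6. The promoter of a gene was picked in different ways for members in a list and in no list.

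Tie2 KO against Tie2 WT shows the chromatin of progenitors whose endothelial forebears could already lose Ezh2. Near higher regions lay 17 of 44 forkhead genes (38.6%, against 11.5% of protein-coding genes overall), and 0 lay near a lower one, where the background is 2.51%. They held 24 regions with a median log2 fold change of 1.015, from 0.65 to 1.95, beside 1.02 for all 2959 higher regions, in the authors' deposited table. The share of forkhead genes lay above that of all genes, and the median change of their regions beside that of the whole list. Forkhead gene starts were covered by 8 of the 24 regions (33.3%), against 55.6% of all higher regions. For whole lists, here and below, cover of the start of the nearest paired gene is counted, so these shares of regions are not a like measure. By gene, 8 of 44 members (18.2%) had a higher region over the start. This stands against 7.1% of all protein-coding genes for higher and 0.384% for lower regions.

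Against the same Tie2 WT samples, Vav KO had 4 forkhead genes near a higher region (9.09%, against 5.29% of protein-coding genes overall) and 3 near a lower one (6.82%, against 2.59%), so these shares rest on few genes. The higher genes were Foxc1, Foxc2, Foxn4 and Foxo6, with log2 fold changes from 0.92 to 2.23, and the lower genes Foxa2, Foxd3 and Foxr1, from -1.87 to -1.53, in the authors' deposited table. Of the 4 higher regions 0 covered a gene start, against 16.8% of all 1313. Of the 3 lower regions 1 did, that of Foxa2, against 16.3% of all 630. By gene, 0 of 44 members had a higher region over the start, against 0.881% of protein-coding genes. A lower one lay there in 1 member (2.27%, against 0.411%).

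Between the knockouts, 20 of 44 forkhead genes lay near a region higher in Tie2 KO than in Vav KO (45.5%, against 11.1% of protein-coding genes overall). Near a region lower in Tie2 KO lay 4 (9.09%, against 6.35%), namely Foxc2, Foxe3, Foxk1 and Foxk2, and Foxe3 is among both. The 24 higher regions had a median log2 fold change of 1.195, from 0.79 to 2.45, beside 1.16 for all 2873, in the authors' deposited table. For the 5 lower regions the median was -1.94, from -2.44 to -0.70, beside -1.12 for all 1560, in the authors' deposited table. Foxk2 holds 2 of these 5, and with 1 region per gene, that of the largest change, the median was -1.57. Gene starts were covered by 12 of the 24 higher regions (50%, against 43.8% of all) and in 27.3% of the 44 members, against 5.42% of protein-coding genes, and by 0 of the 5 lower ones, where the background of genes is 0.667%. The comparisons share the Tie2 KO or the Tie2 WT samples, so values that repeat between them are no independent repeat.

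**Figure D2:**
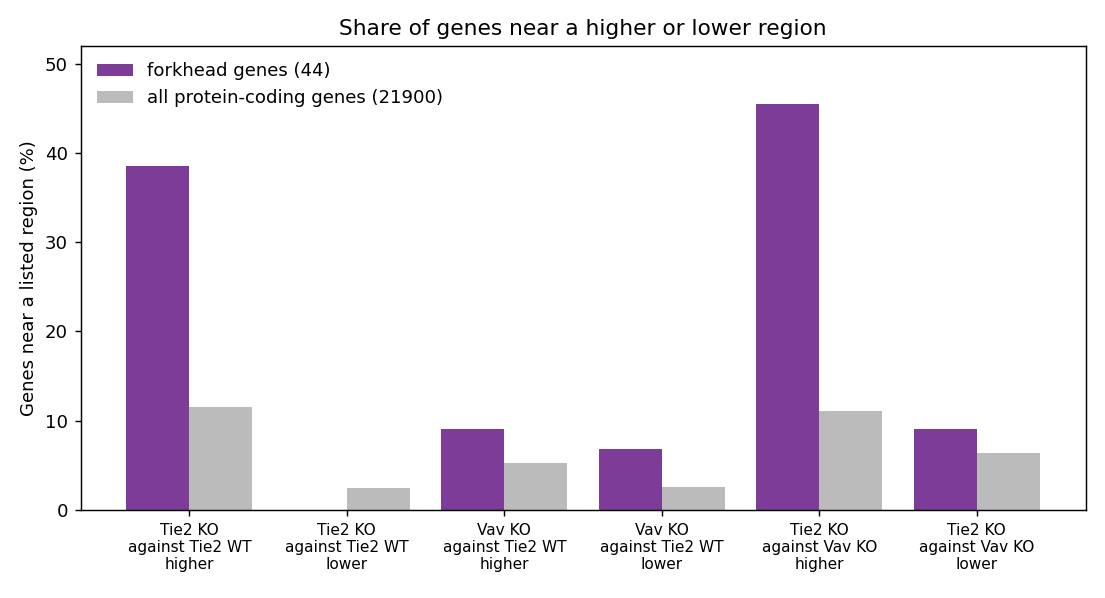
Share of the 44 forkhead genes and of 21900 protein-coding genes (y axis, percent) that lie near a region of each list (x axis: comparison and direction). The forkhead share is 38.6% against 11.5% for regions higher in Tie2 KO than Tie2 WT and 45.5% against 11.1% for regions higher in Tie2 KO than in Vav KO, and below 10% in the other lists.

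**Figure D3:**
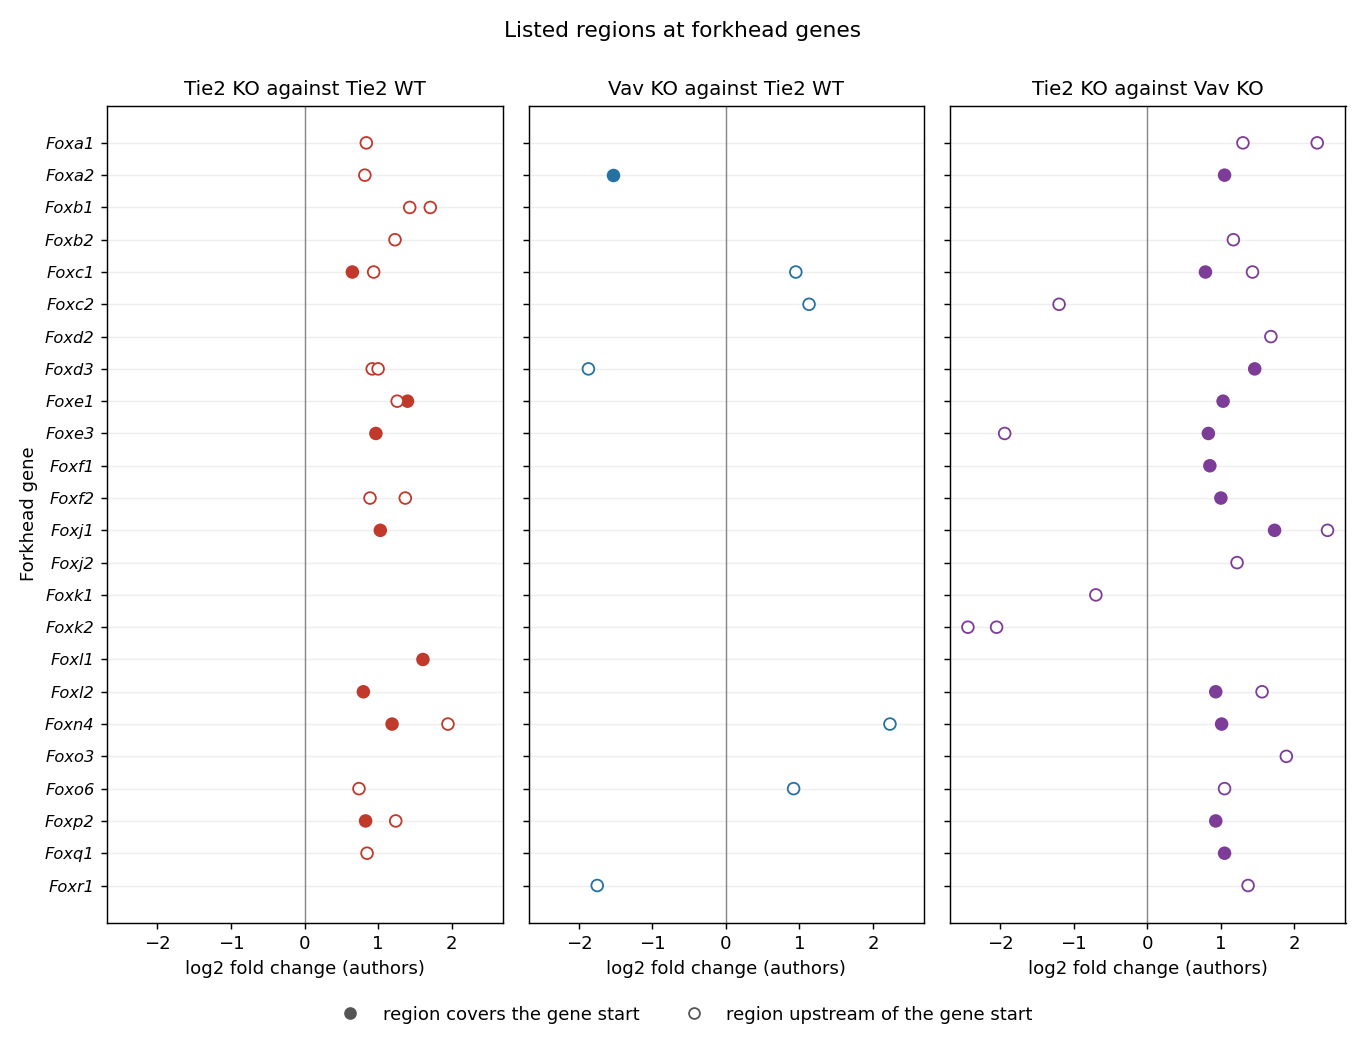
The authors' log2 fold change (x axis) of listed regions at 24 forkhead genes (y axis), 1 panel per comparison. Filled points are regions that cover the gene start and open points regions upstream of it. In the panel of Tie2 KO against Tie2 WT all 23 points lie above 0, in that of Vav KO against Tie2 WT 3 of 7 lie below 0.

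Foxa1 and Foxa2 encode pioneer factors that open chromatin for the genes of liver, lung and gut. No listed region was paired with Foxa3, and regions over its body that are paired with a neighbour are given at the end. Foxa1 had a region 1780 bp upstream of its start that was higher in Tie2 KO than Tie2 WT, at a log2 fold change of 0.84 (adjusted p = 1.01e-05) in the authors' deposited table. In an overlapping region Tie2 KO exceeded Vav KO by 1.3 (adjusted p = 2.3e-05), and in a region 3680 bp upstream by 2.31 (adjusted p = 0.000798), rank 132 of 2873 by fold change, in the authors' deposited table. Foxa2, which also marks the notochord and floor plate, had regions in each comparison. From 732 bp upstream on, chromosome 2 from 148047702 to 148049700, accessibility was higher in Tie2 KO than Tie2 WT, at 0.82 (adjusted p = 4.55e-06) in the authors' deposited table. Over the gene start, from 148046402 to 148047700, accessibility was lower in Vav KO than in Tie2 WT, at -1.53 (adjusted p = 1.41e-05) in the authors' deposited table. These regions abut and do not overlap, and a region from 148046202 to 148049500 that spans both was higher in Tie2 KO than in Vav KO, at 1.05 (adjusted p = 2.42e-06) in the authors' deposited table. The window printed above for Foxa2 lies within that region and within the region lower in Vav KO.

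Regions paired with Foxb genes, a neural subclass, all lay upstream of the gene starts and were all higher in Tie2 KO. Foxb1, a factor of the hindmost forebrain, had regions 1061 and 3761 bp upstream in Tie2 KO against Tie2 WT. Their log2 fold changes were 1.71 (adjusted p = 1.1e-05) and 1.43 (adjusted p = 0.000352) in the authors' deposited table. No region was paired with Foxb1 in the other lists. Regions over its body that are paired with a neighbour are given at the end, 1 of them against Vav KO. Foxb2 had a region 1971 bp upstream at 1.23 (adjusted p = 4.74e-07) in Tie2 KO against Tie2 WT and an overlapping one at 1.17 in Tie2 KO against Vav KO, in the authors' deposited table.

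Foxd3, a factor of neural crest and of the early epiblast, was higher in Tie2 KO and lower in Vav KO than in Tie2 WT, at different positions. In Tie2 KO against Tie2 WT, regions 4898 and 1198 bp upstream were higher, at 0.92 (adjusted p = 0.00324) and 1.00 (adjusted p = 0.00369) in the authors' deposited table. Between them, 3298 bp upstream on chromosome 4 from 99651802 to 99653000, Vav KO was lower than Tie2 WT, at -1.87 (adjusted p = 1.14e-05), rank 94 of 630 by fold change, in the authors' deposited table. Over the gene start, from 99655302 to 99656300, Tie2 KO exceeded Vav KO by 1.46 (adjusted p = 0.000337) in the authors' deposited table. None of these 4 regions overlaps another, so no position carries a value in more than 1 comparison. Of the other Foxd genes, Foxd2 had a region 2803 bp upstream that was higher in Tie2 KO than in Vav KO, at 1.68 (adjusted p = 4.39e-05) in the authors' deposited table, and Foxd1 and Foxd4 were in no list.

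Mesoderm and vessel genes include clusters on chromosomes 13 and 8. Foxq1, Foxf2 and Foxc1 lie within 248 kb on chromosome 13, and all 3 were near higher regions in Tie2 KO. Foxc1, needed for vessels, eye and skull, had regions 1245 bp upstream and over its start at 0.94 (adjusted p = 6.26e-08) and 0.65 (adjusted p = 4.57e-06) in Tie2 KO against Tie2 WT, in the authors' deposited table. Against Vav KO, parts of them stood at 1.43 (adjusted p = 3.93e-05) and 0.79 (adjusted p = 0.00121), in the authors' deposited table. A region 3845 bp upstream was higher in Vav KO than in Tie2 WT, at 0.95 (adjusted p = 3.56e-06), in the authors' deposited table. That last region lies inside the Foxc1 region at 0.94 in Tie2 KO, and both knockouts were thus higher there. Foxf2, a factor of gut mesenchyme and of brain pericytes, had regions 4115 and 15 bp upstream at 1.37 (adjusted p = 5.99e-08) and 0.89 in Tie2 KO against Tie2 WT and 1.00 over its start against Vav KO, in the authors' deposited table. Foxq1 had 0.85 in Tie2 KO against Tie2 WT and 1.05 against Vav KO, in the authors' deposited table. In all, the cluster held 6 regions higher in Tie2 KO than Tie2 WT, 1 higher in Vav KO than in Tie2 WT and 4 higher in Tie2 KO than in Vav KO, with 0 lower. The 6 include a region over the Foxf2 body that is paired with 1700018A04Rik. The span was set by listed members, and regions in other spans were not counted. Each comparison lists more higher than lower regions, so these counts alone show no result about the cluster.

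Foxf1, Foxc2 and Foxl1 lie within 43.3 kb on chromosome 8, and the comparisons differed in which of them they listed. Foxl1, a factor of gut mesenchyme, had a region over its start that was higher in Tie2 KO than Tie2 WT, at 1.61 (adjusted p = 0.000586) in the authors' deposited table. Foxf1, needed for the vessels of yolk sac and allantois, had a region over its start at 0.85 in Tie2 KO against Vav KO, shared with the noncoding RNA gene Fendrr, in the authors' deposited table. Foxc2, a factor of lymphatic vessels and their valves, was higher in Vav KO than in Tie2 WT 4770 bp upstream, at 1.13 (adjusted p = 0.000124) in the authors' deposited table. Beside it, 4070 bp upstream, Tie2 KO was lower than Vav KO, at -1.20 (adjusted p = 9.15e-05) in the authors' deposited table. These regions, chromosome 8 from 121110402 to 121111400 and from 121110802 to 121112100, overlap by 599 bp and are also paired with Mthfsd, whose start is nearer, at 2022 and 2422 bp. Foxl2, a factor of ovary and eyelid, had a region over its start and that of Foxl2os, at 0.80 in Tie2 KO against Tie2 WT and 0.93 against Vav KO, and a further one upstream at 1.56 (adjusted p = 1.21e-05) against Vav KO, in the authors' deposited table.

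**Figure D4:**
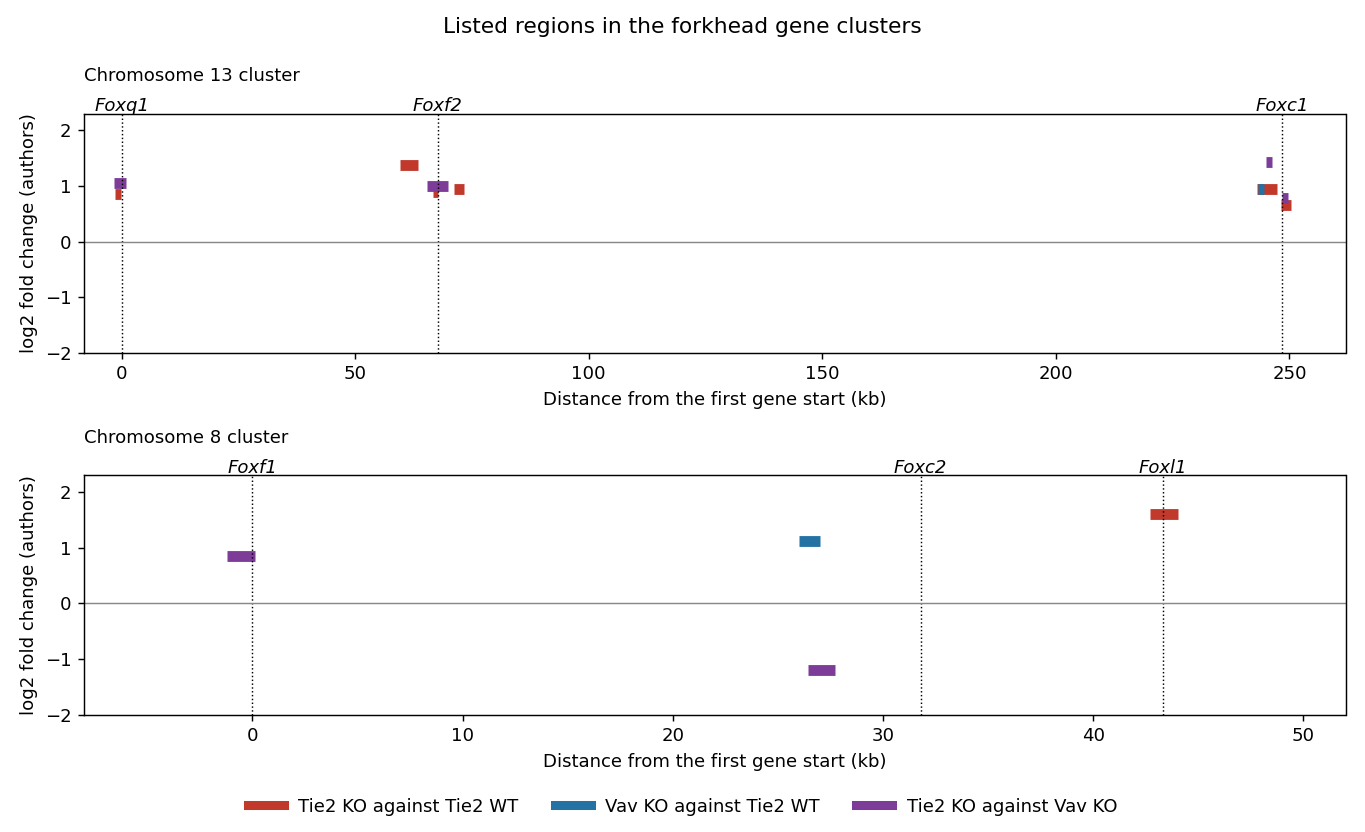
Every listed region (bars, coloured by comparison) in the clusters of chromosomes 13 and 8, by distance from the first gene start in kb (x axis) and the authors' log2 fold change (y axis), with dotted lines at the starts of the forkhead genes. All bars of the chromosome 13 cluster lie between 0.65 and 1.43, and a bar at -1.20 beside a bar at 1.13 stands upstream of Foxc2.

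Foxe1, a factor of thyroid and palate, had regions over its start and 3393 bp upstream at 1.40 (adjusted p = 1.25e-07) and 1.26 (adjusted p = 0.000297) in Tie2 KO against Tie2 WT, and 1.03 over the start against Vav KO, in the authors' deposited table. Foxe3, a factor of the lens, was the only member near a higher and a lower region of the same comparison. A region over the whole Foxe3 gene was higher in Tie2 KO, at 0.97 against Tie2 WT and 0.83 against Vav KO, in the authors' deposited table. A region 1988 bp upstream, chromosome 4 from 114928002 to 114929200, was lower in Tie2 KO than in Vav KO, at -1.94 (adjusted p = 2.53e-05), rank 130 of 1560 by fold change, in the authors' deposited table. Foxh1 and the 3 Foxi genes of the RefSeq table were in no list.

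Foxj1, the regulator of motile cilia, had a region over its start at 1.03 in Tie2 KO against Tie2 WT and 1.73 (adjusted p = 5.5e-07) against Vav KO, in the authors' deposited table. A region 1511 bp upstream of Foxj1 gave the largest value of the family in Tie2 KO against Vav KO, at 2.45 (adjusted p = 5.3e-05), rank 95 of 2873, in the authors' deposited table. Foxj2 had 1.22 in Tie2 KO against Vav KO, in the authors' deposited table. Foxn4, a factor of retinal and spinal interneurons, had the largest values of the family against Tie2 WT in both knockouts, at 1.95 (adjusted p = 1.46e-07) in Tie2 KO and 2.23 (adjusted p = 1.75e-07) in Vav KO, in the authors' deposited table. These regions, 3140 and 3840 bp upstream, overlap by 499 bp on chromosome 5, and no region listed for Tie2 KO against Vav KO lay there. Over the Foxn4 start Tie2 KO was higher than Tie2 WT, at 1.19, and than Vav KO, at 1.01, in the authors' deposited table. Foxr1 had a region 3433 bp upstream that was lower in Vav KO than in Tie2 WT, at -1.75 (adjusted p = 0.00366), and an overlapping one that was higher in Tie2 KO than in Vav KO, at 1.37 (adjusted p = 0.000472), in the authors' deposited table. No Foxr1 region was listed for Tie2 KO against Tie2 WT.

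**Figure D5:**
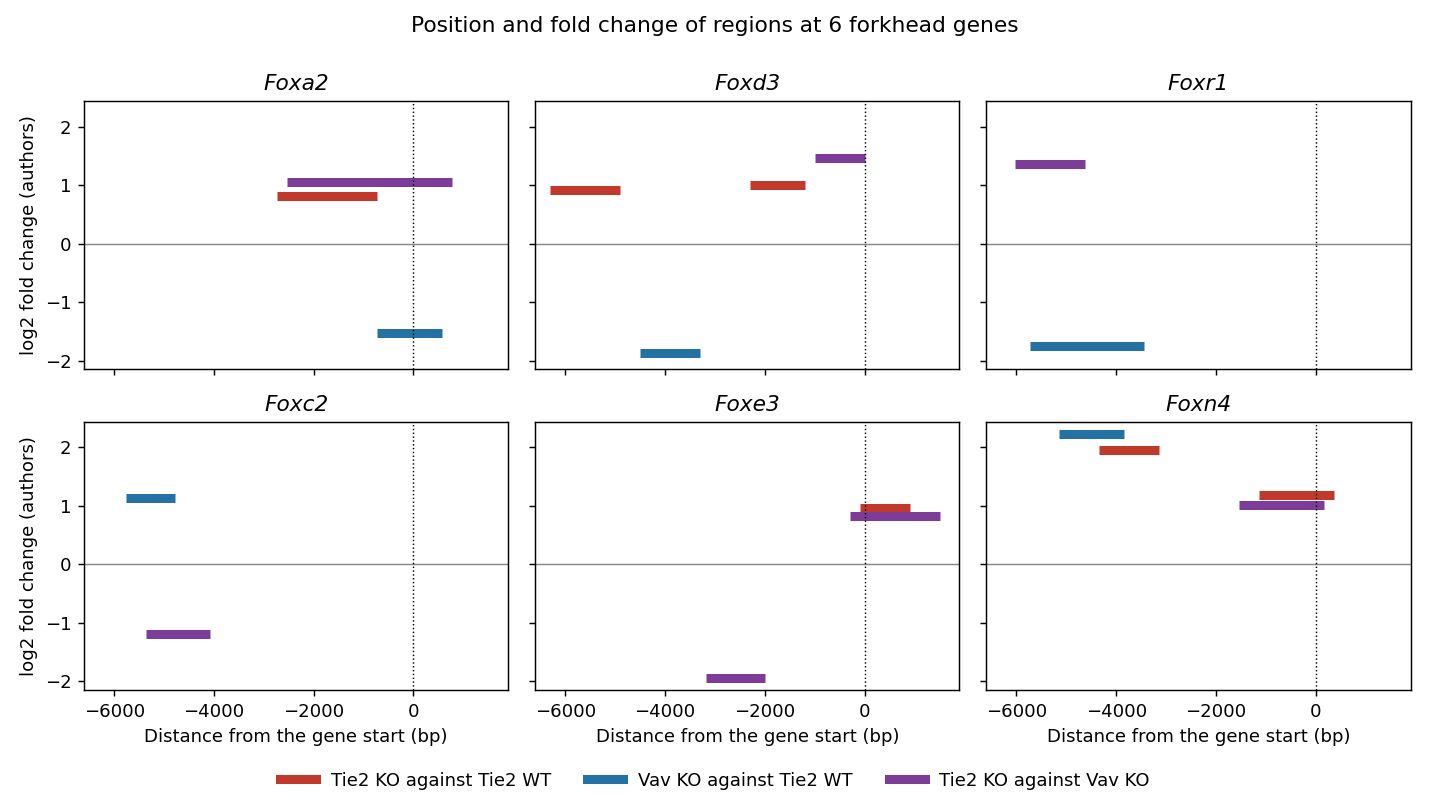
Regions (bars, coloured by comparison) at 6 members with values of both signs or in several comparisons, by distance from the gene start in bp, with upstream to the left (x axis), and the authors' log2 fold change (y axis). At Foxa2 the bar at -1.53 (Vav KO against Tie2 WT) ends where the bar at 0.82 (Tie2 KO against Tie2 WT) begins, and at Foxn4 the bars at 2.23 and 1.95 overlap.

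Foxk1 and Foxk2, widely expressed regulators of glycolysis and autophagy, were the members near lower regions only. Regions 4682 and 2882 bp upstream of Foxk2 were lower in Tie2 KO than in Vav KO, at -2.44 (adjusted p = 7.49e-07), rank 38 of 1560, and -2.05 (adjusted p = 0.00205), in the authors' deposited table. Foxk1 had -0.70 (adjusted p = 0.000375) in the same comparison, 596 bp upstream of its start, in the authors' deposited table. Neither had a region paired with it in the lists against Tie2 WT, so the lists do not show which knockout departed from the control.

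Foxo factors, which Akt kinase inactivates and which keep blood stem cells quiescent, were represented by 2 of 4 genes. Foxo3 had a region 2159 bp upstream that was higher in Tie2 KO than in Vav KO, at 1.89 (adjusted p = 0.000109) in the authors' deposited table. Foxo6, expressed mainly in brain, was higher in both knockouts than in Tie2 WT, at 0.74 (adjusted p = 0.000855) in Tie2 KO and 0.92 (adjusted p = 0.000294) in Vav KO in regions that overlap by 299 bp, and at 1.05 (adjusted p = 5.34e-05) nearer to its start in Tie2 KO against Vav KO, in the authors' deposited table. Of the 4 Foxp genes, Foxp2, a factor of motor and speech circuits, had regions at 1.24 (adjusted p = 2.7e-05) and 0.83 in Tie2 KO against Tie2 WT and 0.93 against Vav KO, in the authors' deposited table. The blood and immune members Foxp1 and Foxp3 were in no list, nor were Foxo1, Foxo4, Foxp4, Foxm1, Foxj3, Foxn1, Foxn2, Foxn3, Foxr2 and Foxs1. Regions over the Foxm1 body that are paired with a neighbour are given at the end.

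Genes that act with forkhead factors were counted in gene lists chosen with earlier results of these data known. Of 15 endoderm factors that work with Foxa proteins, 10 lay near a region higher in Tie2 KO than Tie2 WT, 1 near a region higher in Vav KO than in Tie2 WT and 8 near a region higher in Tie2 KO than in Vav KO, with 0 lower. The higher ones are 66.7%, 6.67% and 53.3% of the list, against 11.5%, 5.29% and 11.1% of all protein-coding genes. For lower regions these shares of all protein-coding genes are 2.51%, 2.59% and 6.35%, so 0 of 15 shows no result about the list. Pdx1, a factor of the pancreas, was at 1.45 in Tie2 KO against Tie2 WT and 2.13 against Vav KO, and Gata6 had 1.21 and 1.22 in Tie2 KO and Vav KO against Tie2 WT, in the authors' deposited table. Other large values were 1.41 at Gata4 against Tie2 WT and 2.11 at Cdx2 and 1.52 at Nkx2-1 against Vav KO, in the authors' deposited table. Foxa genes and their partners also mark endoderm cells, and the part of such cells in these values was not tested.

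Hedgehog signals switch on several forkhead genes, among them Foxa2, Foxf1 and Foxl1. Of 18 Hedgehog pathway genes, 6 were near regions higher and 0 near regions lower in Tie2 KO than Tie2 WT, 2 and 0 in Vav KO against Tie2 WT, and 7 and 1 in Tie2 KO against Vav KO. The higher ones are 33.3%, 11.1% and 38.9% of the list, against 11.5%, 5.29% and 11.1% of all protein-coding genes. The lower ones are 0%, 0% and 5.56%, against 2.51%, 2.59% and 6.35%, and show no result about the pathway. The counts of 2 and 1 rest on few genes. Boc, a co-receptor, had 1.52, the ligand Ihh 1.27 and the effector Gli3 1.11 in Tie2 KO against Tie2 WT, in the authors' deposited table. Vav KO against Tie2 WT had 1.51 at Ihh and 0.96 at Gli2, in the authors' deposited table. Tie2 KO against Vav KO had 2.38 at Boc, 1.92 at Dhh, 1.81 at Hhat and -1.0 at Sufu, an inhibitor of the pathway named here after its values were seen, in the authors' deposited table.

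Of 16 genes of insulin and PI3K signalling, which acts on Foxo factors, 2 were near regions higher in Tie2 KO than Tie2 WT, 0 near a region of Vav KO against Tie2 WT, and 1 higher and 2 lower in Tie2 KO against Vav KO. The higher shares of 12.5% and 6.25% lie near or below the 11.5% and 11.1% of all protein-coding genes, and the 2 lower genes are 12.5%, against 6.35%, so these counts show no result about the pathway. Irs1, an adaptor of the insulin receptor, had 1.21 in Tie2 KO against Tie2 WT and 1.39 against Vav KO, in the authors' deposited table. Pdpk1, a kinase that activates Akt, had 0.63 in Tie2 KO against Tie2 WT, in the authors' deposited table. Sgk1 and Tsc2 had -0.85 and -1.01 in Tie2 KO against Vav KO, in the authors' deposited table.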

How the data were processed

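ATAC-seq libraries of 14 samples in 4 groups were made from 500 sorted cells each with 14 PCR cycles, per the labels' protocols. Per the submitters' processing notes, the build was mm10, and the tools, listed with no word on what each did, were HOMER 4.10, MACS2 2.1.2, Picard, SAMtools 1.3.1, Bowtie2 and FastQC. For the scaling, the Tn5 offsets, the duplicates and the test behind the lists, the steps were not given in the sources used here. Per the file headers, the deposited lists give a log2 fold change, an adjusted p-value and, as other measures, the width and distance in bp of each region, all made by the authors. The group abbreviations in the list names were taken to mean Tie2 KO, Vav KO and Tie2 WT. Region edges lie on a grid of 100 bp. In all 94 lines whose strand field holds a sign the absolute log2 fold change is exactly 1, so that field was not used.

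Members were found by symbol, and all 25 had the gene identifier of the RefSeq table (GRCm38.p6), of which 18 had the same gene start within 10 bp. Genes were counted near a region as the lists pair them. The background is the share of all 21900 protein-coding genes of that table near a region of each list, since the regions tested are not given. No test was run on the members: they and the gene lists were chosen with earlier results of these data known, and the lists hold no value per sample. Adjusted p-values are printed for the 8 members with the largest changes per comparison and direction, and for members near a lower region or with regions in all 3 comparisons; other genes are named up to 3 per list and comparison, apart from Sufu. Regions counted as shared between comparisons where they had 1 bp or more in common. Values of some genes are not reported here. Counting and matching were tested on made-up lists. Python 3.11.15, pandas 2.3.3, NumPy 2.4.6 and matplotlib 3.10.9 were used. Alternatives changed the fold, p, distance, width, pairing and overlap criteria.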

Additional observations from a re-analysis of the deposited data

Results flagged for a closer look

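At 17 regions of 14 forkhead genes, Tie2 KO and Vav KO differed directly by the authors' own test. There at least 1 of them had also been called against the same Tie2 WT samples, which adds nothing to the test of that difference. These regions were picked by calls that share samples with the comparison shown. In 11 of them the overlap was at least 50% of both regions; the Foxj1 region at 2.45 and the Foxl2 region at 1.56 met theirs by only 199 and 499 bp. Log2 fold changes of Tie2 KO against Vav KO in the authors' deposited table were 2.45 and 1.73 at Foxj1, 1.56 and 0.93 at Foxl2, 1.43 and 0.79 at Foxc1 and 1.37 at Foxr1. They were 1.3 at Foxa1, 1.17 at Foxb2, 1.05 at Foxa2 and at Foxq1, 1.03 at Foxe1, 1.01 at Foxn4, 1.00 at Foxf2, 0.93 at Foxp2, 0.83 at Foxe3 and -1.20 at Foxc2 in the authors' deposited table. At Foxa2, Foxr1 and Foxc2 a difference of Vav KO from Tie2 WT had been called at that position, at -1.53, -1.75 and 1.13 in the authors' deposited table.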

How the results depend on the processing

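Of 50 values under other settings, 11 could not move: 6 start from a count of 0, and in 5 the limit on the adjusted p removes no region, since the largest adjusted p of a forkhead region is 0.00369 in the authors' deposited table. Of the other 39, 26 stayed within 1.5 times the reported count, or within 1 SD over the members' regions for medians, and 13 moved. No reversal was possible, since each list holds regions of 1 direction only and counts have no sign. With an absolute log2 fold change of at least 1, the genes near higher regions were 10 in Tie2 KO against Tie2 WT and 2 in Vav KO against Tie2 WT. With regions covering the gene start alone, genes near higher regions were 8 in Tie2 KO against Tie2 WT, 0 in Vav KO against Tie2 WT and 12 in Tie2 KO against Vav KO, genes near lower regions 1 in Vav KO against Tie2 WT and 0 in Tie2 KO against Vav KO, and the median of lower regions in Vav KO against Tie2 WT was -1.53, from 1 region. Within 1000 bp of the gene start, Vav KO against Tie2 WT had 0 higher and 1 lower gene, and Tie2 KO against Vav KO had 1 lower gene. Among regions wider than the smallest width, 2 genes were higher in Vav KO against Tie2 WT. Shares of all protein-coding genes were not counted at the fold, distance and width settings, so how these counts stand to a background is unknown. Forkhead regions of different comparisons overlapped in 23 pairs by at least 1 bp and in 12 pairs by at least 50% of both. The covering setting gave no median for higher regions of Vav KO or lower regions of Tie2 KO against Vav KO, as it left no region there, and Tie2 KO against Tie2 WT had no lower region under any setting. No paired analysis was possible because the groups have no value for single samples in the lists. Depth per library is unknown, and leaving out a sample was likewise not possible.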

Other observations

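Several listed regions lie over the body of a forkhead gene, as RefSeq (GRCm38.p6) places it, but are paired with a neighbour, so they are counted for no forkhead gene above. At Foxm1, which drives genes of mitosis, a region paired with Rhno1 was higher than in Tie2 WT in Tie2 KO, at a log2 fold change of 1.59, and an adjacent region in Vav KO, at 1.93, in the authors' deposited table. At Foxa3, regions paired with Sympk were higher in Tie2 KO, at 0.95 against Tie2 WT and at 2.05 and 1.43 against Vav KO, in the authors' deposited table. At Foxb1, regions paired with B230323A14Rik stood at 1.33 in Tie2 KO against Tie2 WT and 1.40 against Vav KO, in the authors' deposited table. Regions over Foxd2 paired with Foxd2os stood at 0.96 and 0.89 in the same comparisons, in the authors' deposited table. A region over Foxk1 paired with Ap5z1 and a region over Foxf2 paired with 1700018A04Rik were higher in Tie2 KO against Tie2 WT, at 0.90 and 0.95, in the authors' deposited table. Of these 11 regions over 6 genes, 0 were lower. The share of such regions over all genes was not counted. Tie2 KO against Tie2 WT lists 2959 higher and 619 lower regions, and Vav KO against Tie2 WT 1313 and 630. Tie2 KO against Vav KO lists 2873 and 1560, so the 0 shows no result about forkhead genes.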
